A study of Mus musculus with 451 samples.

Results

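The transforming growth factor beta (TGF-β) genes examined here were the 3 ligand genes Tgfb1, Tgfb2 and Tgfb3, the 3 receptor genes Tgfbr1, Tgfbr2 and Tgfbr3, and the 4 genes of the latent TGF-β binding protein family, Ltbp1, Ltbp2, Ltbp3 and Ltbp4. The members were chosen by gene symbol, and all 10 were among the 48795 symbols of the count table, of which 25841 had at least 1 read. They were followed through single cells of the tail tendon of C57BL/6 mice aged 4 weeks, either wild type (WT, 227 cells) or lacking the tendon transcription factor Mohawk (Mkx-/-, 224 cells). The cells were freed with collagenase and taken up on a high-throughput Fluidigm C1 chip, and counts were given for each cell. No label told from which animal or chip a cell came, and how many mice were pooled was not stated. All cells of a genotype were therefore 1 sample, no test between genotypes was made, and no difference below has a replicate check.

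TGF-β ligands are secreted in a latent form, held by their own propeptide, which Ltbp proteins tie to fibrillin microfibrils of the extracellular matrix. Integrins, thrombospondin 1 and proteases can free the ligand, which binds the type II receptor Tgfbr2. Tgfbr2 then recruits and phosphorylates the type I receptor Tgfbr1, which passes the signal to Smad2 and Smad3, while the coreceptor Tgfbr3 (betaglycan) presents ligand, above all Tgfb2. In tendon this pathway is known for its part in the recruitment and maintenance of tendon progenitors and as an inducer of the tendon factor Scx.

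In all, 13630536 reads came from WT and 14145394 from Mkx-/- cells, and the median cell had 51788 and 56121 reads. A level below is the CPM of a gene, its summed reads as a share of the summed reads of all genes scaled to a common library size, with an exact Poisson interval at 95%. Genotypes were compared by the log2 of the Mkx-/- level over the WT level, with an exact conditional binomial interval. The intervals cover counting error only, and the counts are of reads rather than of molecules, so that 1 cell can hold a large part of a sum. The 10 members together took 17433 reads, or 0.128% of all reads, in WT and 21357 reads, or 0.151%, in Mkx-/- cells. Mkx itself, the targeted gene, had 33.8 CPM in WT against 15.5 CPM in Mkx-/- cells, giving a log2 ratio of -1.13 (-1.37 to -0.89), so the direction followed the labels, although 29 of the 224 cells labelled Mkx-/- still had a Mkx read.

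Joint clustering of both genotypes split the cells into 3 clusters. The TPC-like cluster (89 WT and 88 Mkx-/- cells) carried the tendon progenitor cell (TPC) markers Cd44, Thy1, Ly6a, Fstl1 and Tppp3. The TC-like cluster (74 and 80 cells) carried the tenocyte (TC) markers Col11a2, Col1a1, Col1a2, Sparc, Tnmd and Fmod. Cluster 3 (64 and 56 cells) had Mmp3 among its leading genes and was left without a name, because only 2 tenoblast markers had been listed. Both of these were highest there, Itm2a (406.2 CPM for WT, 442.9 CPM for Mkx-/-) and Lgals3 (1193 and 2066 CPM). Its leading genes also included the predicted genes Gm10801, Gm10800 and Gm10717, and its median cell had fewest reads of the 3 clusters, 37297.5 in WT and 41631 in Mkx-/- cells. In TC-like cells Col2a1 and Cilp2 were also among the leading genes. Of 4 chondrocyte markers Col2a1 had 331.2 and 226.9 CPM and Acan 18.11 and 39.19 CPM there, while Matn1 was at 0 in every cluster and Col9a1 was at 0 in TC-like cells, and the list summed to 2287 reads over all WT cells and 1909 over all Mkx-/- cells. The part of these in the results was not tested. Some wells stood apart. A WT cell of the TC-like cluster with 335813 reads and 9924 detected genes held 88.4% of the WT reads of 6 endothelial markers, 24.8% of those of 6 mural markers and 45.3% of those of 3 Schwann cell markers. An Mkx-/- cell of the same cluster with 236408 reads held 72.03% of the Mkx-/- reads of the Schwann cell markers. Summed over WT and Mkx-/- cells, the endothelial markers had 38.5 and 5.09 CPM, with Tie1 at 0 reads in Mkx-/- cells, and the 7 immune markers had 122.2 and 92.5 CPM. The mural markers had 84.7 and 51.1 CPM, with Myh11, Notch3 and Kcnj8 at 0 in Mkx-/- cells, and the Schwann cell markers had 88.3 and 140 CPM. Without the wells that led these lists, the member ratios over all cells moved by at most 0.117 on the log2 scale (Tgfb3), and no member changed sign. The part of such cells in the results was not tested further.

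The promoters of 3 members are shown because Ltbp1 and Ltbp2 were the members that differed by over 1.5-fold between genotypes over all cells, in opposite directions, and because Tgfb2 was the ligand with most reads. RefSeq sequences (GRCm38.p6) run from 250 bases before to 50 bases after a listed transcription start, and 8 of the 10 members had one. The Tgfb2 window was chr1:186705940-186706239 on the minus strand, the Ltbp1 window chr17:75005279-75005578 on the plus strand and the Ltbp2 window chr12:84876442-84876741 on the minus strand. The listed Tgfb2 gene began further upstream, at position 186709697, so its window lay within the gene and not at its outermost start. Capitals mark the letters of 1 motif in each, searched on both strands.
Tgfb2: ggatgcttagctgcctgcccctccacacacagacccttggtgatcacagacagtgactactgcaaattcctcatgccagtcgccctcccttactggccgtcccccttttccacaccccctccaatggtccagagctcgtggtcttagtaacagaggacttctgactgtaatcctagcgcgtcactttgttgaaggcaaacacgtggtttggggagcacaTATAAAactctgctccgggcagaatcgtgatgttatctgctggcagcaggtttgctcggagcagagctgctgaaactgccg
Ltbp1: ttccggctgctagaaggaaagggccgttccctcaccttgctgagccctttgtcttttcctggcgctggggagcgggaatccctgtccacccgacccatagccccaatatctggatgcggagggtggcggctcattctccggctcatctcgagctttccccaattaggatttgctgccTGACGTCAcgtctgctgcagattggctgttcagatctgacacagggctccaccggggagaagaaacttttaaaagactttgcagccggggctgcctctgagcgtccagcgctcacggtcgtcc
Ltbp2: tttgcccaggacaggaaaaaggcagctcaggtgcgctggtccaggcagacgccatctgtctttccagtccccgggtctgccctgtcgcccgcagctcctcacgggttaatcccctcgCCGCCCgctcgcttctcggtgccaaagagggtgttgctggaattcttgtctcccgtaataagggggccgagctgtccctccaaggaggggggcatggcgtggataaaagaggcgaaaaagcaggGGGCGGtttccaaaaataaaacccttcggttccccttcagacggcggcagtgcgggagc
The capitals in Tgfb2 are a TATA box (TATAAA), which began 31 bases before the listed start and was held by 13.6% of all 32851 promoters of the same length. The capitals in Ltbp1 are a cAMP response element (TGACGTCA), held by 1.79% of all promoters. RefSeq lists a second Ltbp1 start, at chr17:75178531-75178830, whose window held no such match, and gene counts cannot tell reads of the 2 starts apart. The capitals in Ltbp2 are 2 matches of the GC box (GGGCGG), held by 35.7% of all promoters. The Smad box (CAGAC), to which Smad3 can bind, was held by 49.6% of all promoters and occurred 2 times in the Tgfb2 window, 1 time in that of Ltbp1 and 3 times in that of Ltbp2, nowhere over the capitals. A match is a description of letters, not of a bound factor.

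Over all cells, 1 of the 10 members was higher by over 1.5-fold in Mkx-/- cells (Ltbp2) and 1 was lower by over 1.5-fold (Ltbp1). Of all 10963 genes with at least 100 reads, 16% were higher and 13.1% lower by over 1.5-fold, so the members' counts stood near the background. The remaining latent binders Ltbp3 and Ltbp4 and the ligand Tgfb2 were higher by somewhat less than 1.5-fold. The median log2 ratio of the 10 members was 0.23, beside 0.06 over all genes, whose SD was 0.81. By cluster, 8, 9 and 9 members had at least 100 reads over both genotypes in TPC-like cells, cluster 3 and TC-like cells. In TPC-like cells none of the 8 was higher and 1 was lower by over 1.5-fold, beside 17.7% and 16.2% of all genes. In cluster 3, 4 were higher and 2 lower, beside 20.6% and 19.5% of all genes. In TC-like cells 3 were higher and 1 was lower, beside 28% and 13.2%, and the median of the members was 0.40 beside 0.20 over all genes.

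**Figure D1:**
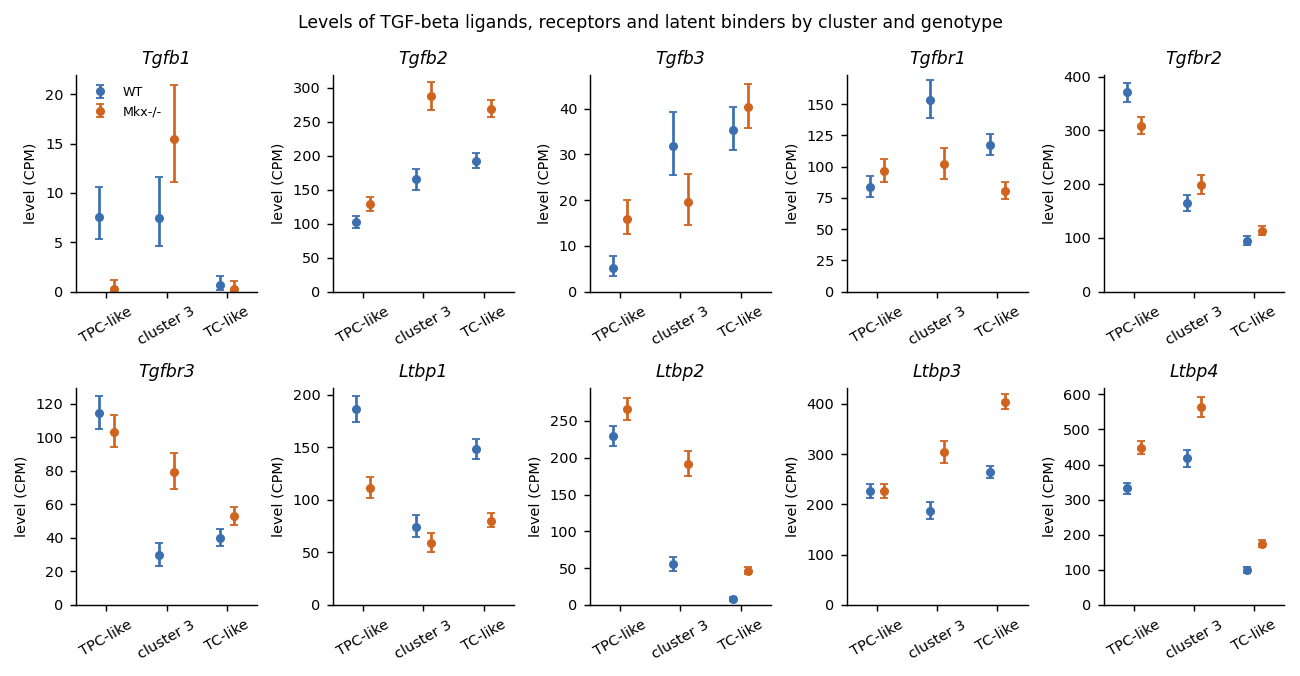
Level in CPM (vertical axes, from 0) of each of the 10 genes in the 3 clusters (horizontal axes) for WT (blue) and Mkx-/- (orange) cells, with 95% Poisson intervals of the summed reads. Ltbp2 and Tgfbr2 are lowest in TC-like cells, Tgfb2 is lowest in TPC-like cells, and Ltbp1 is lower in Mkx-/- than in WT cells in each cluster.

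Among the ligands, Tgfb2 (chromosome 1, 186622787 to 186709697) gave most of the reads and was higher in Mkx-/- cells in every cluster. Its level was 156.6 CPM (150 to 163.3) in WT and 227.1 CPM (219.4 to 235.1) in Mkx-/- cells, giving a log2 ratio of 0.54 (0.46 to 0.62). Tgfb2 reads were found in 64.3% of WT cells (57.7 to 70.6) and 76.8% of Mkx-/- cells (70.7 to 82.1). Both genotypes spanned cells without a read to cells near 2000 CPM, so single cells overlapped throughout, with a per-cell median of 39.4 CPM in WT against 87.95 CPM in Mkx-/- cells and a highest cell at 1981 and 1832 CPM. The log2 ratio was 0.34 (0.16 to 0.51) in TPC-like cells, then 0.80 (0.63 to 0.97) for cluster 3 and 0.48 (0.38 to 0.59) for TC-like cells. Ordered by level, cluster 3 and TC-like cells of Mkx-/- mice came first, at 287 and 269 CPM and within counting error of each other, followed by TC-like (192.7 CPM) and cluster 3 cells (164.9 CPM) of WT mice. The TPC-like cells came last, at 128.7 CPM in Mkx-/- cells and with an interval of 92.9 to 111.6 CPM in WT cells. After every cell with enough reads was thinned to 28000 reads, the overall ratio was 0.66.

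Tgfb3 (chromosome 12, 86056743 to 86079041), the ligand gene known together with Tgfb2 from tendon loss in mouse embryos that lack both, was rare. Reads were found in 34 of 227 WT cells (14.98%, 10.6 to 20.3) and 39 of 224 Mkx-/- cells (17.4%, 12.7 to 23.02). The level was 24.5 CPM (21.95 to 27.3) in WT and 28.6 CPM (25.8 to 31.5) in Mkx-/- cells, giving a log2 ratio of 0.22 whose interval (0.01 to 0.43) reached down almost to 0. Its level was highest in TC-like cells, at 35.4 CPM in WT against 40.4 CPM in Mkx-/- cells, within counting error of each other, and the 31.9 CPM of WT cells in cluster 3 did not stand apart from the former. In TPC-like cells 24 reads of it came from WT and 73 from Mkx-/- cells, each time in 6 cells, and 1 cell held 45.8% and 49.3% of them. The share of TPC-like cells with a read was thus 6.74% and 6.82% although the log2 ratio of reads was 1.62 (0.93 to 2.35), or 0.66 without the Mkx-/- cell with most of them. In cluster 3 the ratio was -0.70 (-1.23 to -0.19), on 85 and 52 reads, with 44.7% and 44.2% of them in 1 cell, and it turned to 0.14 without that WT cell.

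Tgfb1 (chromosome 7, 25687002 to 25705077), the ligand made widely by immune and mesenchymal cells, was almost undetected at this depth. Its reads numbered 59 in 15 WT cells and 44 in 8 Mkx-/- cells, or 4.33 CPM (3.30 to 5.58) and 3.11 CPM (2.26 to 4.18), and the log2 ratio of -0.48 had an interval that spanned 0 (-1.07 to 0.11). Of the 44 Mkx-/- reads 22 lay in 1 cell of cluster 3. In TPC-like cells 35 reads in 7 WT cells stood against 1 read in Mkx-/- cells, giving a log2 ratio of -5.12 with a wide interval (-10.46 to -2.55) and a range of -6.38 to -2.33 over the 8 other settings tried by cluster, while cluster 3 had 20 and 41 reads and TC-like cells had 4 and 2. Without the Tgfb1-richest cell of either genotype, the overall ratio moved from -0.48 to -1.15. In WT mice 11 cells had reads of at least 2 of the 7 immune markers, and 4 of them held 19 of the 59 Tgfb1 reads, whereas the 5 such Mkx-/- cells held none. The part of such cells in the Tgfb1 levels was not tested.

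**Figure D2:**
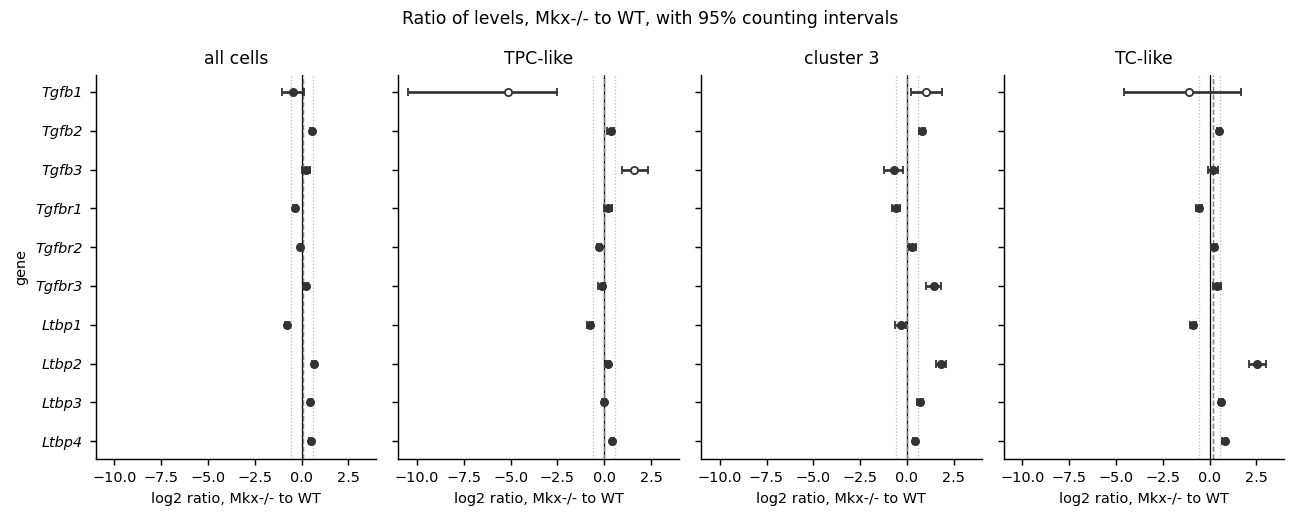
Log2 ratio of the level in Mkx-/- to that in WT cells (horizontal axes) for each gene (rows), over all cells and in each cluster, with 95% counting intervals. Open circles have under 100 reads over both genotypes, dotted lines mark 1.5-fold, the solid line marks 0 and the dashed line the median of all genes. Ltbp2 lies near 0 in TPC-like cells and at 1.80 and 2.56 in cluster 3 and TC-like cells, and Ltbp1 lies left of 0 in each panel.

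Over all cells the receptor ratios lay nearer to 0 than those of the latent binders, and the sign of Tgfbr1 and Tgfbr2 was not the same in every cluster. Tgfbr2 (chromosome 9, 116087695 to 116175363), which binds the ligand first, had 201.7 CPM (194.2 to 209.4) in WT and 192.6 CPM (185.4 to 199.9) in Mkx-/- cells, giving a log2 ratio of -0.07 whose interval (-0.14 to 0.01) included 0. The ratio was -0.26 (-0.37 to -0.16) in TPC-like cells but positive elsewhere, at 0.28 (0.09 to 0.46) in cluster 3 and at 0.26 (0.10 to 0.41) in TC-like cells. Tgfbr2 was foremost a gene of TPC-like cells, where 94.4% of WT cells (87.4 to 98.2) and 88.6% of Mkx-/- cells (80.1 to 94.4) had a read, and where the per-cell median was 254 and 250.4 CPM. Its level fell into the same order in both genotypes, from 371 and 309 CPM in TPC-like cells over 164.1 and 198.9 CPM in cluster 3 to 94.8 and 113.4 CPM in TC-like cells, and each step exceeded counting error. Under the scaling that leaves Col1a1, Col1a2 and Sparc out of the library size, the TC-like ratio between genotypes was 0.08. Short parts of the Tgfbr2 transcript match many other places in the genome, so a part of its reads may be uncertain.

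Tgfbr1 (chromosome 4, 47353222 to 47414926), the kinase that phosphorylates Smad2 and Smad3, was lower in Mkx-/- cells by reads, while the share of cells with a read was no lower. Its level was 113.1 CPM (107.6 to 118.9) in WT and 89.8 CPM (84.9 to 94.9) in Mkx-/- cells, giving a log2 ratio of -0.33 (-0.44 to -0.23). Reads were found in 37.9% of WT cells (31.6 to 44.5) and 45.98% of Mkx-/- cells (39.3 to 52.7), intervals that overlapped, and cells with a read had a median of 163.7 CPM in WT against 99.99 CPM in Mkx-/- cells. The ratio was -0.55 (-0.71 to -0.39) in TC-like cells and -0.59 (-0.81 to -0.36) in cluster 3, whereas TPC-like cells had 0.21 (0.01 to 0.41). The TPC-like value turned to -0.20 and -0.22 under 2 other clusterings, to -0.03 after thinning and to -0.10 without 1 Mkx-/- cell, and the cluster 3 value turned to 0.24 when 10 dimensions were clustered, so only the TC-like direction was the same under every setting tried. From TC-like to TPC-like cells the order was not the same in the 2 genotypes, at 117.6 and 83.7 CPM in WT against 80.6 and 96.6 CPM in Mkx-/- cells. With Col1a1, Col1a2 and Sparc left out of the library size, the order in Mkx-/- cells turned to that of WT cells.

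Tgfbr3 (chromosome 5, 107106567 to 107289629), the betaglycan coreceptor, had 63.1 CPM (58.95 to 67.5) in WT and 74.2 CPM (69.7 to 78.8) in Mkx-/- cells, giving a log2 ratio of 0.23 (0.10 to 0.36). The difference was widest in cluster 3, where it had 29.6 CPM in WT against 79.5 CPM in Mkx-/- cells, giving a log2 ratio of 1.42 (1.05 to 1.82). There 34.4% of WT cells (22.95 to 47.3) and 42.9% of Mkx-/- cells (29.7 to 56.8) had a read, so the shares overlapped within their intervals, and thinning lowered the ratio to 0.79. In TPC-like cells, where its level was highest, the 114.3 CPM of WT and 103.4 CPM of Mkx-/- cells were within counting error of each other. TC-like cells had 39.99 and 52.8 CPM, a log2 ratio of 0.40 (0.17 to 0.64).

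Among the latent binders, Ltbp1 was lower and Ltbp2, Ltbp3 and Ltbp4 were higher in Mkx-/- cells. Ltbp1 (chromosome 17, 75005480 to 75392512), a carrier of latent TGF-β, had 146.7 CPM (140.4 to 153.3) in WT and 86.3 CPM (81.5 to 91.3) in Mkx-/- cells, giving a log2 ratio of -0.77 (-0.87 to -0.66). Under the 10 other settings tried over all cells the ratio lay between -0.82 and -0.71. Reads were found in 55.9% of WT cells (49.2 to 62.5) and 45.98% of Mkx-/- cells (39.3 to 52.7), and the per-cell median was 27.2 CPM and 0. The ratio was -0.74 (-0.90 to -0.58) in TPC-like cells, at 186.3 and 111.5 CPM, and -0.89 (-1.04 to -0.73) in TC-like cells, at 148.5 and 80.3 CPM. In TC-like cells 64.9% of WT cells (52.9 to 75.6) and 45% of Mkx-/- cells (33.8 to 56.5) had a read. In cluster 3, where Ltbp1 was lowest in both genotypes, the ratio was -0.34 (-0.65 to -0.03) and turned to between 0.04 and 0.05 under 2 other clusterings and after thinning.

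Ltbp2 (chromosome 12, 84783212 to 84876558), a microfibril protein of the family that does not itself bind latent TGF-β differed between genotypes by more than any other member with at least 100 reads in cluster 3 and in TC-like cells, though not over all cells or in TPC-like cells. In WT mice it had 229.5 CPM (215.9 to 243.8) in TPC-like cells, against 55.1 CPM (46.5 to 64.7) in cluster 3 and only 7.87 CPM (5.84 to 10.4) in TC-like cells. In Mkx-/- mice the same clusters had 266 CPM (251 to 281), 191.3 CPM (175.1 to 208.7) and 46.4 CPM (41.5 to 51.8). The level thus stepped down from TPC-like to TC-like cells in both genotypes, by less in Mkx-/- cells. The log2 ratio between genotypes was 0.21 (0.09 to 0.33) in TPC-like cells, against 1.80 (1.53 to 2.07) in cluster 3 and, in TC-like cells, 2.56 (2.13 to 3.02), which rested on 50 and 321 reads.

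More cells as well as more reads carried Ltbp2 in Mkx-/- mice in each cluster. In TPC-like cells the shares were 43.8% of WT cells (33.3 to 54.75) and 55.7% of Mkx-/- cells (44.7 to 66.3), with overlapping intervals. After thinning they were 43.75% and 53.1%. Reads were found in 25% of WT cells (15.02 to 37.4) and 50% of Mkx-/- cells (36.3 to 63.7) of cluster 3, and in 12.2% (5.72 to 21.8) and 31.2% (21.3 to 42.6) of TC-like cells. In cluster 3 and in TC-like cells the intervals of the 2 genotypes overlapped narrowly. After thinning the shares were 18% (8.58 to 31.4) and 46.7% (31.7 to 62.1) in cluster 3. In TC-like cells they were 9.46% (3.89 to 18.5) and 16.2% (8.95 to 26.2), so the gap there was smaller at equal depth and the intervals overlapped. In TC-like cells 1 cell held 38% of the WT reads and 1 cell held 23.4% of the Mkx-/- reads. The highest TC-like cells stood at 191.2 CPM in WT against 816 CPM in Mkx-/- cells, and the median cell had no read in either genotype. The WT well that stood apart held 19 of the 50 WT reads, and without the wells that led the lists of other cell types the TC-like ratio was 3.22. Over the 8 settings tried by cluster it ranged from 2.38 to 3.22 in TC-like cells and from 1.54 to 2.01 in cluster 3. An antisense gene, D030025P21Rik, shares 764 exon bases with Ltbp2 in the NCBIM37 annotation and had 70 reads in all cells, and since the strand used in counting was not stated, reads of the 2 genes cannot be told apart there.

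**Figure D3:**
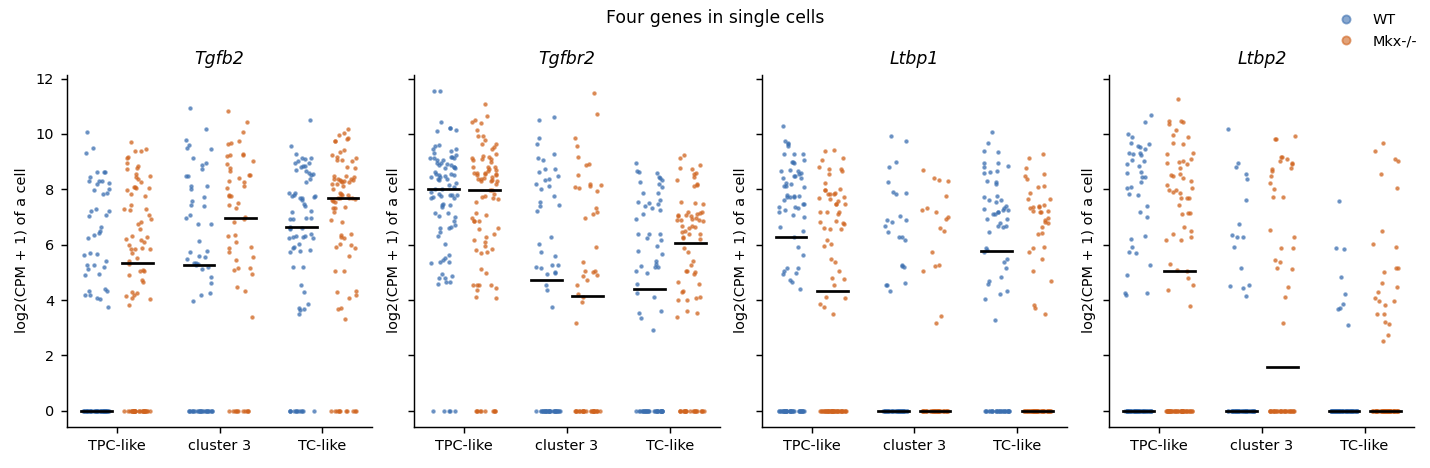
Level of 4 genes in single cells, as log2(CPM + 1) on the vertical axes, by cluster and genotype (WT blue, Mkx-/- orange), with each point 1 cell and black bars at the median. The 2 genotypes overlap in each cluster, the Tgfb2 median in TC-like cells is higher in Mkx-/- cells, and the Ltbp2 points thin out from TPC-like to TC-like cells.

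Ltbp3 (chromosome 19, 5740900 to 5758536), the member of the family found in most cells, had a read in 92.5% of WT cells (88.3 to 95.6) and 96.4% of Mkx-/- cells (93.1 to 98.5). Its level was 236.5 CPM (228 to 245) in WT and 328 CPM (318 to 337) in Mkx-/- cells, giving a log2 ratio of 0.47 (0.40 to 0.54). The difference lay in cluster 3, at 0.70 (0.54 to 0.87), and TC-like cells, at 0.61 (0.53 to 0.70), while TPC-like cells stood at 227.1 and 225.8 CPM, a ratio of -0.01 (-0.13 to 0.12). Every TC-like cell had a read (74 of 74 and 80 of 80), and the per-cell median there was 242 CPM in WT against 412 CPM in Mkx-/- cells. With Col1a1, Col1a2 and Sparc left out of the library size the TC-like ratio was 0.43.

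Ltbp4 (chromosome 7, 27305140 to 27339720), a binder also needed for elastic fibre assembly, was higher in Mkx-/- cells by a like amount in TPC-like cells and cluster 3 and by more in TC-like cells. Its level was 240.4 CPM (232 to 249) in WT and 336 CPM (326 to 346) in Mkx-/- cells, giving a log2 ratio of 0.48 (0.42 to 0.55). The ratio was 0.43 (0.34 to 0.53) in TPC-like cells, nearly the same in cluster 3 at 0.43 (0.32 to 0.55), and 0.80 (0.66 to 0.94) in TC-like cells, at 99.8 and 174.3 CPM. In TC-like cells reads were found in 59.5% of WT cells (47.4 to 70.7) and 83.8% of Mkx-/- cells (73.8 to 91.1), and after thinning in 54.1% and 77.5%. Thinning lowered the overall ratio to 0.365, and leaving out the wells that led the lists of other cell types lowered it to 0.41.

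**Figure D4:**
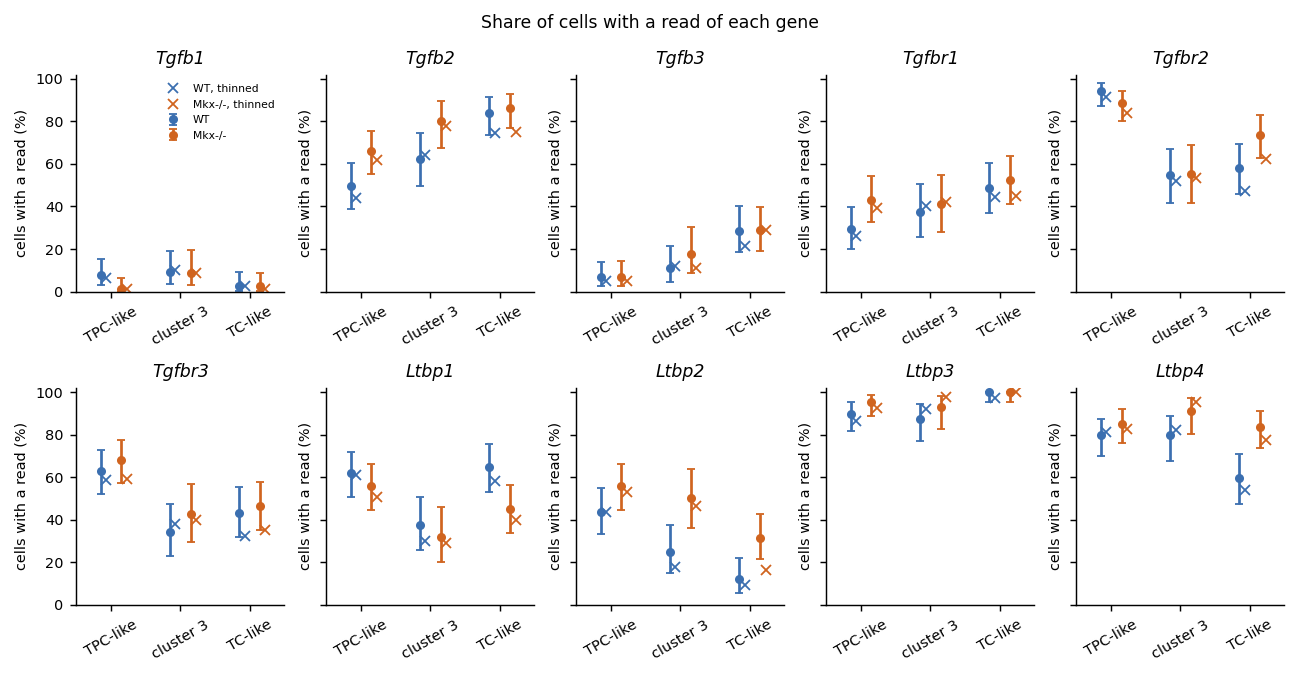
Share of cells with at least 1 read (vertical axes, percent) of each gene, by cluster and genotype, with exact 95% binomial intervals for all reads (circles) and the share after thinning to 28000 reads (crosses). Tgfb1 and Tgfb3 are in few cells, Ltbp3 is in nearly all, and the TC-like shares of Ltbp2 and Ltbp4 are higher in Mkx-/- than in WT cells.

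The members were then compared between clusters within a genotype, as a description, because the clusters were formed from genes of the same cells. A CPM is a share of all reads, and Col1a1, Col1a2 and Sparc took a larger part of the reads in TC-like cells, where the median log2 ratio of all genes to TPC-like cells was -0.66 in WT and -0.43 in Mkx-/- cells. Of the 9 members with enough reads in WT mice, 2 were higher and 4 lower by over 1.5-fold in TC-like than in TPC-like cells, beside 11.1% and 53.5% of all genes. In Mkx-/- mice 3 were higher and 4 lower, beside 12.7% and 43%. Tgfb2 and Tgfb3 were higher in TC-like cells of both genotypes, with log2 ratios of 0.92 (0.76 to 1.08) and 2.77 (2.16 to 3.44) in WT and of 1.06 (0.93 to 1.20) and 1.34 (0.96 to 1.73) in Mkx-/- cells. Tgfbr2, Tgfbr3, Ltbp2 and Ltbp4 were lower there, with ratios of -1.97, -1.52, -4.87 and -1.73 in WT and of -1.44, -0.97, -2.52 and -1.36 in Mkx-/- cells. Without Col1a1, Col1a2 and Sparc in the library size, every TC-like to TPC-like ratio was higher by 0.49 in WT and 0.31 in Mkx-/- cells, and these 6 directions stayed. The WT ratio of Ltbp1 then turned from -0.33 to 0.17 and the Mkx-/- ratio of Tgfbr1 from -0.26 to 0.05. When the members and the 60 other pathway genes were left out of the clustering, the TC-like to TPC-like ratio was 0.87 for Tgfb2 and -4.80 for Ltbp2 in WT.

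Between cluster 3 and TPC-like cells, 3 of 9 members were higher and 4 lower by over 1.5-fold in WT mice, beside 17% and 25.7% of all genes, and 1 was higher and 2 were lower in Mkx-/- mice, beside 17.8% and 27%. Tgfb2 was higher in cluster 3 in both genotypes, by 0.69 and 1.16 on the log2 scale. Tgfbr2 and Ltbp1 were lower in both, with ratios of -1.17 and -1.33 in WT and -0.63 and -0.92 in Mkx-/- cells. Ltbp2 was lower by 2.06 in WT and by 0.48 in Mkx-/- cells.

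To ask how often ligand, receptors and binders met in 1 cell, cells with a read of each were counted. At least 1 Ltbp gene was read in 99.1% of WT cells (96.8 to 99.9) and in the same share of Mkx-/- cells. At least 1 ligand was read in 70.9% of WT cells (64.6 to 76.7) and 79.9% of Mkx-/- cells (74.1 to 84.9), mostly as Tgfb2 alone (51.1% and 59.4%). Both Tgfbr1 and Tgfbr2, the pair needed for signalling, were read in 27.3% of WT cells (21.6 to 33.6) and 34.4% of Mkx-/- cells (28.2 to 40.99), and after thinning in 24.02% and 27.2%. A ligand together with both receptors was read in 19.8% (14.8 to 25.6) and 26.3% (20.7 to 32.6), and after thinning in 16.2% and 18.5%. The share of cells with each receptor differed by cluster. Tgfbr2 was read in 94.4% of WT and 88.6% of Mkx-/- TPC-like cells, against 58.1% and 73.75% of TC-like cells. For Tgfbr1 the shares were 29.2% and 43.2% of TPC-like cells, against 48.65% and 52.5% of TC-like cells. Whether any of these genes were read together more or less often than their separate shares would give was not tested. In TPC-like cells Tgfbr1 without Tgfbr2 was found in 0 of 89 WT cells, for which the exact binomial interval reached up to 4.06%, and in 4 of 88 Mkx-/- cells (4.55%), against 17.6% and 16.2% of TC-like cells. Any ligand was read in 55.1% of TPC-like WT cells (44.1 to 65.6) and 91.9% of TC-like WT cells (83.2 to 96.97), and at 28000 reads a cell in 48.8% and 82.4%. The intervals cover counting error only, and absence of a read in a cell is not absence of the transcript.

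The other genes of the pathway were taken from 4 lists by role, 60 genes in all, of which 56 had at least 100 reads. Of these 56, 8 were higher and 5 lower by over 1.5-fold over all cells, with a median log2 ratio of 0.13 beside the 0.06 of all genes, and beside the 16% and 13.1% given above. Among 11 genes of release and activation, 2 were higher. Mmp2, a protease of the matrix, had 412 CPM in WT against 809 CPM in Mkx-/- cells, giving a log2 ratio of 0.97 (0.93 to 1.02), and Thbs1, thrombospondin 1, had 70.1 and 129.4 CPM, a ratio of 0.88 (0.77 to 0.998). The Mmp2 ratio was 1.91 (1.82 to 2.01) in TC-like cells and 0.99 (0.91 to 1.07) in cluster 3. It was only 0.16 (0.08 to 0.23) in TPC-like cells. The Thbs1 ratio was 1.25 in TC-like and 0.61 in TPC-like cells but -0.16 (-0.45 to 0.12) in cluster 3. For Thbs1, 1 WT TC-like cell held 36.9% of the WT reads of its cluster, and without it the TC-like ratio was 1.89. Both that were lower had few reads. Itgb6, an integrin subunit that activates latent TGF-β, had 100 and 60 reads, of which 1 cell held 46% and 51.7%, and the ratio of -0.79 turned to 0.09 without that WT cell. Lrrc32 (GARP), which holds latent TGF-β on the cell surface, had 21.3 and 13.6 CPM, a ratio of -0.64 (-0.91 to -0.37) that was -0.41 without 1 WT cell.

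Among 11 matrix and surface binders, Bgn (biglycan, a proteoglycan that binds TGF-β) was higher, at 360.1 CPM in WT against 848 CPM in Mkx-/- cells, giving a log2 ratio of 1.24 (1.19 to 1.28). It was widest in TC-like cells, at 2.23 (2.15 to 2.31), against 0.13 (0.04 to 0.22) in TPC-like cells, with cluster 3 between them at 0.55. Bambi, a decoy receptor that dampens TGF-β signalling, was lower, at 73.4 and 41.4 CPM, a ratio of -0.83 (-0.98 to -0.68), with 0.06 (-0.23 to 0.36) in TPC-like cells, -0.74 in cluster 3 and -1.28 in TC-like cells. In cluster 3, 1 Mkx-/- cell held 57.89% of the Bambi reads of that genotype, and the ratio was -1.97 without it. Fbn1, the fibrillin to which Ltbp proteins attach, stood at -0.14. Among 16 genes of Smad signalling and its Map3k7 branch, Map3k7 (TAK1, a kinase that TGF-β receptors can activate) was higher, at 37.4 and 75.4 CPM, a ratio of 1.01 (0.86 to 1.17), with 0.75 in the TPC-like cluster and 1.40 in the TC-like cluster. In cluster 3 the Map3k7 ratio of 0.92 was 0.17 without 1 Mkx-/- cell, which held 41.55% of the Mkx-/- reads there. Tab1, its activating partner, was lower, at 9.32 and 1.20 CPM, a ratio of -2.96 (-3.78 to -2.22), and was read in 5.29% and 1.34% of cells. The Tab1 ratio was -2.50 without the leading WT cell and -3.86 without the leading Mkx-/- cell. The receptor Smads Smad2 and Smad3 stood at -0.43 and -0.28, and the inhibitory Smad7 at 0.22. By cluster, the Smad7 ratio was 1.04 (0.78 to 1.31) in TPC-like cells, -0.27 in cluster 3 and -0.02 in TC-like cells.

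The list taken as TGF-β targets held 18 genes, among them the tendon genes Scx and Tnmd. Of these 18, 4 were higher and 1 was lower by over 1.5-fold, beside the 16% and 13.1% of all genes, with a median of 0.12. Fn1 (fibronectin) had 441 CPM in WT against 945 CPM in Mkx-/- cells, giving a log2 ratio of 1.10 (1.06 to 1.14). By cluster, the Fn1 ratio was 1.21 (TC-like), 1.14 (TPC-like) and 0.00 (-0.14 to 0.15, cluster 3). The cluster 3 value moved with single cells, to 0.43 without 1 WT cell and to -0.18 without 1 Mkx-/- cell. Tnc (tenascin C) had 64.05 and 136.9 CPM, a ratio of 1.10 (0.98 to 1.21), and Tgfbi, a matrix protein named for its induction by TGF-β, had 404 and 634 CPM, a ratio of 0.65 (0.60 to 0.70). Tagln rested on 47 and 90 reads in about 4% of cells, and its ratio of 0.88 was 0.23 without 1 Mkx-/- cell. Lox, the collagen cross-linking enzyme, was lower, at 995 and 647 CPM, a ratio of -0.62 (-0.66 to -0.58), with -0.76 in TC-like but 0.37 in TPC-like cells, where it was -0.02 without 1 Mkx-/- cell. Ctgf, often read as a target of the pathway, stood at 0.03, made of 0.51 in TPC-like cells, -0.81 in cluster 3 and -0.18 in TC-like cells. The median of the target list, 0.12, stood near that of all genes. Among the pathway genes named here, the study reported Mmp2 and Ctgf as higher in bulk RNA of Mkx-/- tail tendons. It reported Thbs1 as high in Mkx-/- TPCs and TCs. The Ctgf ratio of 0.03 over all single cells did not show that bulk difference. Col1a1, Col1a2, Tnmd and Fmod are TC markers as well as list members. None of these genes is thus independent evidence.

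**Figure D5:**
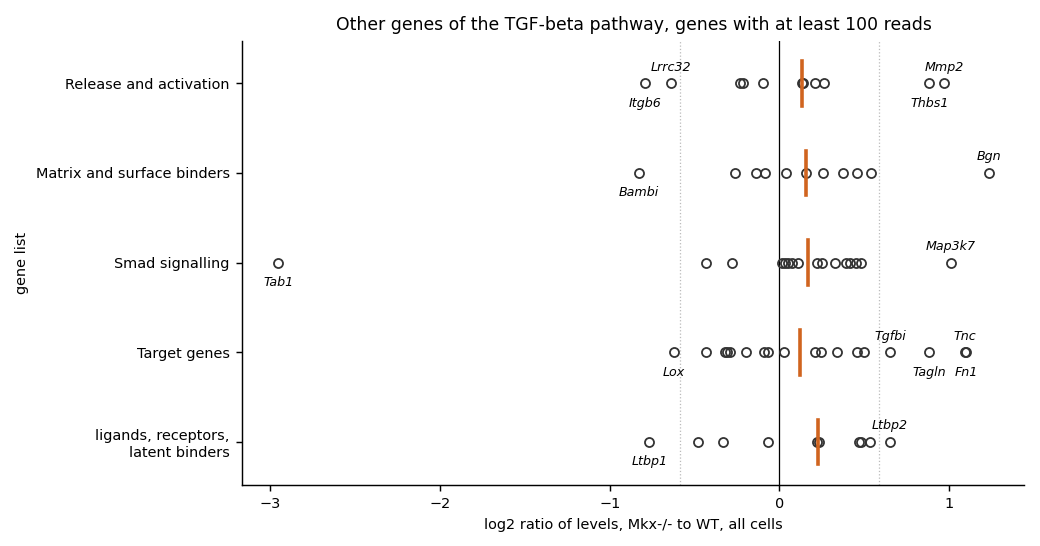
Log2 ratio of the level in Mkx-/- to that in WT cells over all cells (horizontal axis) for the genes with at least 100 reads of the 4 pathway lists and for the 10 ligands, receptors and latent binders (rows). Each circle is 1 gene, orange bars mark medians, dotted lines mark 1.5-fold, and genes past that fold are named. All 5 medians lie between 0 and 0.23, and Tab1 stands alone at -2.96.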

How the data were processed

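Per the labels and the study's methods, single tail tendon cells of WT and Mkx-/- mice were sequenced on a Fluidigm C1 high-throughput chip. For each gene and cell the authors deposited unnormalised read counts, made with bowtie2 and featureCounts after quality trimming. The study's methods name the mm9 genome and the submitters' processing notes name mm10. Strand use and the handling of reads with several positions are not given in the sources used here. Positions and promoters are from RefSeq on GRCm38.p6 (mm10), in which 34106 of the 48795 symbols were found, against 28993 in GENCODE M1 (NCBIM37), and exon overlaps are from the latter. For Tgfbr2, parts of the transcript of up to 174 bases matched 860 other places of that genome at over 95% identity, so a part of its reads may be uncertain.

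The 451 cells in the table, fewer than the study states as passing its quality control, were all kept, and no doublet caller was run. Counts were summed over the cells of a genotype, or of a genotype in a cluster, and scaled to CPM. A sum of 0 was set to 3 reads, and pairs of sums of at most 3 reads were given no ratio. Clusters came from Seurat 5.3.0 (R 4.3.3), with canonical correlation anchors on the 1000 most variable genes of each genotype, 4 dimensions and resolution 0.4. The number of variable genes, the dimensions and the resolution followed the study. Its older release aligned the genotypes in another way and set some cells aside, which was not done here. These clusters and their names were rebuilt here and may group cells differently from the study. Thinning drew 28000 reads per cell, which left out 23 WT and 18 Mkx-/- cells. The ratios and their intervals were tested on simulated data.

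All 10 members were named. From each pathway list, at most 4 genes in each direction, by size of ratio, were named if past 1.5-fold, with at least 100 reads and an interval that left out 0. Fbn1, Smad2, Smad3, Smad7 and Ctgf were added for their roles, after their values had been computed. For members read in at least 20% of cells, the 3 genes most correlated over cells were named. Some genes are not reported here. Alternatives were equal weights for cells or clusters, TMM (edgeR 4.0.16) and DESeq2 1.42.0 size factors between the 2 sums, thinning, leaving out, for each gene, the cell with most of its reads in either genotype, bounds on detected genes, and clusterings in 10 dimensions, without members and listed genes, or also without genes that differed over 2-fold between genotypes. Members and lists were chosen with earlier results of these data known. Since each genotype was 1 sample, no test was made.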

Additional observations from a re-analysis of the deposited data

Results flagged for a closer look

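The ratio between genotypes of both signalling receptors had opposite signs in the TPC-like and the TC-like cluster, each time with a counting interval that left out 0. For Tgfbr1 the log2 ratio was 0.21 in the TPC-like but -0.55 in the TC-like cluster. For Tgfbr2 it was -0.26 in the TPC-like but 0.26 in the TC-like cluster. Each value was 1 ratio of 1 sample to 1 sample, and the difference between the clusters was not tested. The Tgfbr1 value in TPC-like cells turned negative under 2 other clusterings, after thinning and without 1 Mkx-/- cell, whereas the Tgfbr2 values kept their signs under all 8 settings tried, from -0.27 to -0.14 in TPC-like and from 0.08 to 0.44 in TC-like cells.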

How the results depend on the processing

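No paired analysis was possible because each genotype was 1 sample and no result came from a test. Of the 10 members over all cells, 8 kept their direction under all 10 settings, the exceptions being Tgfb1 (up to 0.02 with equal cluster weights) and Tgfbr2 (0.030 after thinning). In TC-like cells all 9 members with enough reads kept it under 8 settings, in cluster 3 all but Tgfbr1 and Ltbp1, and in TPC-like cells all but Tgfbr1, Tgfbr3 and Ltbp3. The setting without the leading cells dropped that of both genotypes together. With the leading cell of a single genotype left out, Tgfb3 also changed sign. It stood at 0.14 in cluster 3 without the WT cell and at -0.01 in TC-like cells without the Mkx-/- cell. Scaling by TMM or size factors shifted every member by -0.02 and -0.001. The scaling without Col1a1, Col1a2 and Sparc, thinning by cluster and leaving out the wells of other cell types or the leading cells of single pathway genes were added after seeing the data.

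Without the leading cells Tgfb1 moved to -1.15. Thinning gave 0.66 for Tgfb2, -0.53 for Tgfbr1 and 0.365 for Ltbp4, 2 members higher by over 1.5-fold, and 27.2% and 18.5% of Mkx-/- cells with both receptors and with a ligand and both. Equal cell weights gave -0.17 for Tgfbr1, 0.76 for Ltbp2 and 0.0815 for the median of the matrix and surface binders. Cells with at least 2500 genes gave -0.53 for Tgfbr1. Equal cluster weights gave 0.78 for Ltbp2, and leaving out the wells of other cell types gave 0.41 for Ltbp4. The count of members lower over all cells was 2 with equal cell weights, without the leading cells and in cells with at least 2500 genes. In cluster 3 it was 1 under all 3 other clusterings, the scaling without the 3 genes and without those wells, and in TC-like cells 2 with equal cell weights, thinning, that scaling and 10 dimensions.

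Reversed directions are listed here only for ratios whose counting interval left out 0, apart from those on leaving out a single cell. They were those of Tgfbr1 in TPC-like cells (-0.20 without the differing genes, -0.22 in 10 dimensions, -0.032 thinned), Tgfbr1 in cluster 3 (0.24 in 10 dimensions), Ltbp1 in cluster 3 (0.0399 without the differing genes, 0.0362 in 10 dimensions, 0.0482 thinned) and Tgfb1 in cluster 3 (-1.05 without the differing genes). Between clusters, Ltbp1 in WT (0.17) and Tgfbr1 in Mkx-/- cells (0.0488) reversed under the scaling without the 3 genes, and Ltbp3 in WT from TPC-like cells to cluster 3 (0.0103) when the differing genes were left out. The causes were not tested.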

Other observations

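Over all cells, the genes whose log2(CPM + 1) followed a member most closely were searched among 5125 genes read in at least 20% of cells. All correlations were weak, cells of 1 cluster share their depth and makeup, and the values are descriptions. The highest belonged to Tgfbr2, with Fbn1 (fibrillin 1, Pearson's r = 0.421), Cd248 (0.413) and Olfml2a (0.410). Tgfbr3 stood nearest to Cd55 and Scara5 (both 0.314) and to Fstl1 (0.296), which is a TPC marker. Ltbp4 stood nearest to Gsn (0.370), Myoc (0.328) and Col3a1 (0.319), and Ltbp3 to Pcolce (0.340), Htra1 (0.310) and Col1a2 (0.284). Mgst3 (0.311) and Ptpn22 (0.306) stood near Ltbp2, and Tgfb2 stood nearest to Cgref1 (0.296), Col6a3 (0.290) and Col11a1 (0.290). For Ltbp1 (Idh1 0.234, Dpysl2 0.225, Sdc2 0.224) and Tgfbr1 (Rbbp6 0.226, Snhg1 0.199, Nfatc2 0.196) no gene reached 0.25. Thinning moved the 3 genes nearest to Ltbp1 to ranks 40, 13 and 27, and put Scara5 first for Tgfbr2, with Fbn1, Cd248 and Olfml2a at ranks 2, 6 and 7. It also moved Rbbp6 to rank 12 for Tgfbr1, Col6a3 to rank 8 for Tgfb2, Pcolce to rank 5 for Ltbp3 and Cd55 to rank 4 for Tgfbr3, and put Tppp3 and S100a6 ahead of Mgst3 for Ltbp2. Gsn, Myoc and Col3a1 remained the 3 nearest to Ltbp4. Among the members themselves, the closest pair was Tgfbr2 with Tgfbr3 (0.276), and Tgfb2 with Tgfbr2 stood at -0.072.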
